A study of Danio rerio with 9 samples.

Results

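Zebrafish (Danio rerio) embryos that lack a working copy of npc2 were set against wild-type embryos across all genes, with 3 homozygous and 3 wild-type libraries out of 9 in the series. The libraries were chosen by their genotype label. Every library came from a pool of 30 whole embryos taken at 30 hours post fertilisation, and polyadenylated RNA was sequenced. Homozygous embryos (MZnpc2m/m) are maternal-zygotic mutants in the field's notation, in which MZ marks loss in both mother and embryo and M loss in the mother. Heterozygous embryos (Mnpc2+/m), given beside them here, were their siblings from the same matings and were told apart by phenotype. Wild-type embryos (npc2+/+) came from matings between other fish, siblings of the parents of the mutants. Between homozygous and wild-type pools, the embryo's genotype, its mother and the mating therefore changed together and cannot be told apart. Homozygous and heterozygous siblings differ in their own genotype and in the phenotype they were sorted by, and share their matings. The labels call the 3 pools of a genotype separate without naming clutches or days, so the p-values measure the spread between pools.

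Npc2 is a small soluble protein of the lysosome that takes up free cholesterol and hands it to the membrane protein Npc1, from which cholesterol leaves for other membranes. When either protein is lost, cholesterol and sphingolipids collect in lysosomes while the rest of the cell senses a lack of sterol, and loss of either gene in people causes Niemann-Pick disease type C. A mother also loads the egg with RNA, protein and yolk, so that a maternal-zygotic mutant lacks the product from the first division on. Genes of cholesterol synthesis, the lysosome and the Notch pathway were set apart, and the results below mainly concern other genes. A gene of these pathways could still be named through another list, as the Notch ligand gene dll4 and the cathepsin gene ctslb were. CYP51A1, of cholesterol synthesis, was outside the list set apart.

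Levels are given as CPM, each library's counts scaled to the same total with TMM factors. They are not divided by gene length, so levels are compared between pools and not between genes. Values after ± are standard deviations over 3 pools for CPM and standard errors for log2 fold changes, and pool values are listed in the order of replicates 1 to 3. Fold changes are homozygous over wild type unless another pair is named, and a gene was called at an edgeR adjusted p under 0.05. Symbols are those of the names table supplied with the data, often in the human form, and the full ID follows a symbol that several genes share.

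Of 20375 genes tested, 9076 were called between homozygous and wild-type embryos, 44.5% of the total. Homozygous embryos had 4783 genes higher (23.5%) and 4293 lower (21.1%). These shares are the background for the counts of list members below. Most of the called changes were small. At least 2-fold changes were called for 984 genes higher (4.83%) and 575 lower (2.82%), 4-fold changes for 273 higher and 131 lower, and 16-fold changes for 58 higher and 24 lower. Among genes that averaged 100 CPM or more, 385 of 1709 were higher and 645 lower, while among genes under 1 CPM 505 of 4054 were higher and 262 lower. The 3 libraries of one genotype lay wholly above the 3 of the other for 10987 genes (53.9%). Library totals ranged from 38564405 to 69360234 counts, TMM factors from 0.981 to 1.02, and the share of the 10 most abundant genes from 8.89% to 9.71%. The first principal component held 42.4% of the variance and put the homozygous libraries at 51.0 to 55.6, the heterozygous at -12.0 to -8.21 and the wild-type at -49.5 to -37.0.

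**Figure D1:**
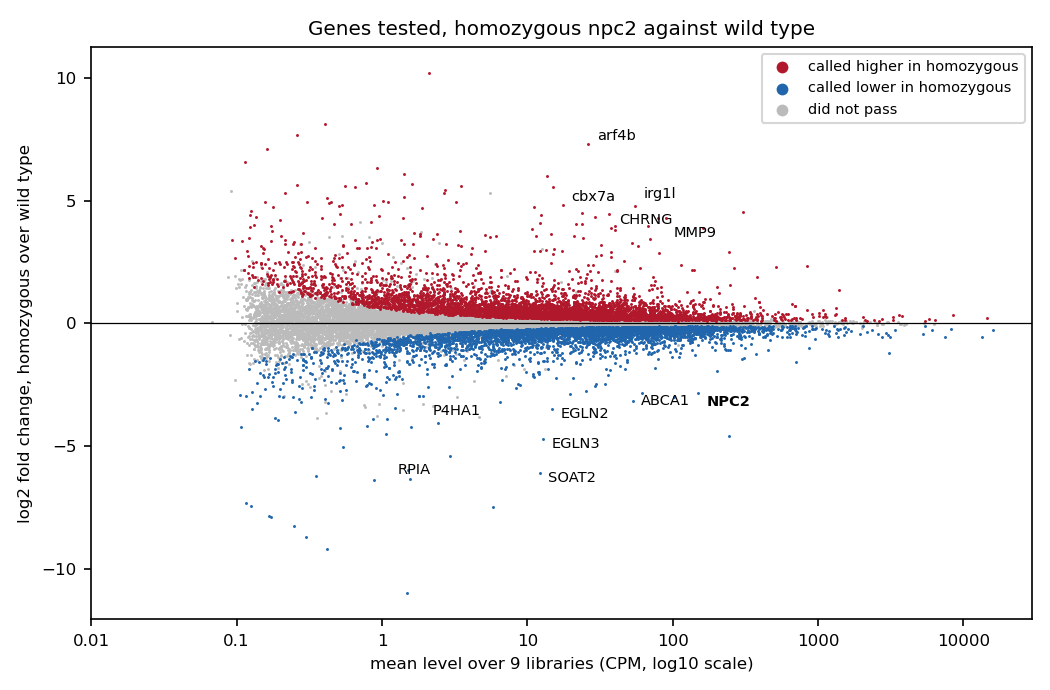
Mean level of each of the 20375 genes over all 9 libraries (CPM, log10 scale) against the log2 fold change of homozygous over wild-type embryos. Red points were called higher and blue points lower in homozygous embryos, and most called points lie within 2-fold of wild type.

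The npc2 genes were read first. The symbol belongs to 2 IDs, and the labels do not state which of them carries the mutation. NPC2 (ENSDARG00000090912) had 34.1, 32.6 and 44.3 CPM in homozygous, 144, 146 and 142 CPM in heterozygous and 264, 256 and 278 CPM in wild-type pools. The 3 genotypes did not overlap, and the log2 fold change was -2.85 ± 0.10 (edgeR adjusted p = 5.59e-09), so that some npc2 transcript was still counted in homozygous pools. A second ID of the same symbol, NPC2 (ENSDARG00000096979), had 1.08, 1.19 and 1.36 CPM in homozygous pools, against 2.28, 1.75 and 1.84 CPM in wild-type pools, with a log2 fold change of -0.69 ± 0.25, a call lost once homozygous library 1 or 2 or wild-type library 1 or 3 was left out, at an adjusted p of 0.0571 to 0.118. Of the genes within 10 positions of npc2.1 in RefSeq gene order (GRCz12tu), 14 were tested. Of these, 2 were higher and 3 lower, where 44.5% of all genes were called. The lower ones were PRKD3, a protein kinase, at -0.51 ± 0.08, PLK4, which starts centriole copying, at -0.30 ± 0.06, and HSPA4L, a chaperone, at -0.41 ± 0.10. The higher ones were QPCT, which modifies the amino end of peptides, at 0.45 ± 0.07, and atg2b, a lipid transfer protein of autophagosomes, at 0.41 ± 0.13, a call lost once homozygous library 3 or wild-type library 3 was left out, at an adjusted p of 0.0544 to 0.0897.

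The changes that follow are among the largest by fold for genes with at least 5 CPM in the higher genotype and no overlap of libraries, and lower-count genes had larger fitted folds. arf4b, a small GTPase of the Arf family that recruits vesicle coats, had 80.6, 89.8 and 63.1 CPM in homozygous, 0.433, 0.743 and 0.615 CPM in heterozygous and 0.518, 0.501 and 0.441 CPM in wild-type pools. All homozygous pools stood above all others, and the log2 fold change was 7.32 ± 0.20 (edgeR adjusted p = 7.59e-10), against 0.29 ± 0.34 for heterozygous over wild type (adjusted p = 0.572). cbx7a, a Polycomb chromobox protein that reads trimethylated histone H3, had 44.2, 53.02 and 47.7 CPM in homozygous, 2.41, 4.05 and 2.61 CPM in heterozygous and 0.725, 2.79 and 1.249 CPM in wild-type pools. Again the homozygous pools alone were high, with a log2 fold change of 4.83 ± 0.40. CYB5R2, a cytochrome b5 reductase, had 31.3, 31.3 and 30.2 CPM in homozygous pools, against 1.398, 1.002 and 1.102 CPM in wild-type pools, and CHRNG, the embryonic gamma subunit of the muscle acetylcholine receptor, had 92.4, 95.9 and 98.5 CPM in homozygous pools, against 6.11, 6.25 and 6.87 CPM in wild-type pools.

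tcap, which caps titin at the Z disc of muscle, had 60.01, 58.8 and 48.0 CPM in homozygous, 2.47, 3.38 and 1.85 CPM in heterozygous and 5.13, 4.64 and 4.21 CPM in wild-type pools, with homozygous pools above wild type and heterozygous pools below it (log2 3.59 ± 0.18 for homozygous over wild type). CYP24A1, the enzyme that inactivates vitamin D, averaged 38.6 ± 3.49 CPM in homozygous, 2.09 ± 0.871 in heterozygous and 3.09 ± 0.162 in wild-type embryos. CARTPT (ENSDARG00000035852), a neuropeptide precursor, averaged 15.6 ± 0.914 CPM in homozygous, 1.46 ± 0.350 in heterozygous and 1.302 ± 0.0536 in wild-type embryos. In both, only the homozygous pools were raised by several-fold. Among abundant genes, FN1 (ENSDARG00000006526), the matrix protein fibronectin, had 1698, 1789 and 1768 CPM in homozygous, 440.3, 420.1 and 419 CPM in heterozygous and 287, 384 and 353 CPM in wild-type pools (log2 2.36 ± 0.09, edgeR adjusted p = 2.45e-08). MVP, the shell protein of vault particles, averaged 722 ± 10.1 CPM in homozygous, 231 ± 10.6 in heterozygous and 193 ± 8.78 in wild-type embryos (log2 1.91 ± 0.05).

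**Figure D2:**
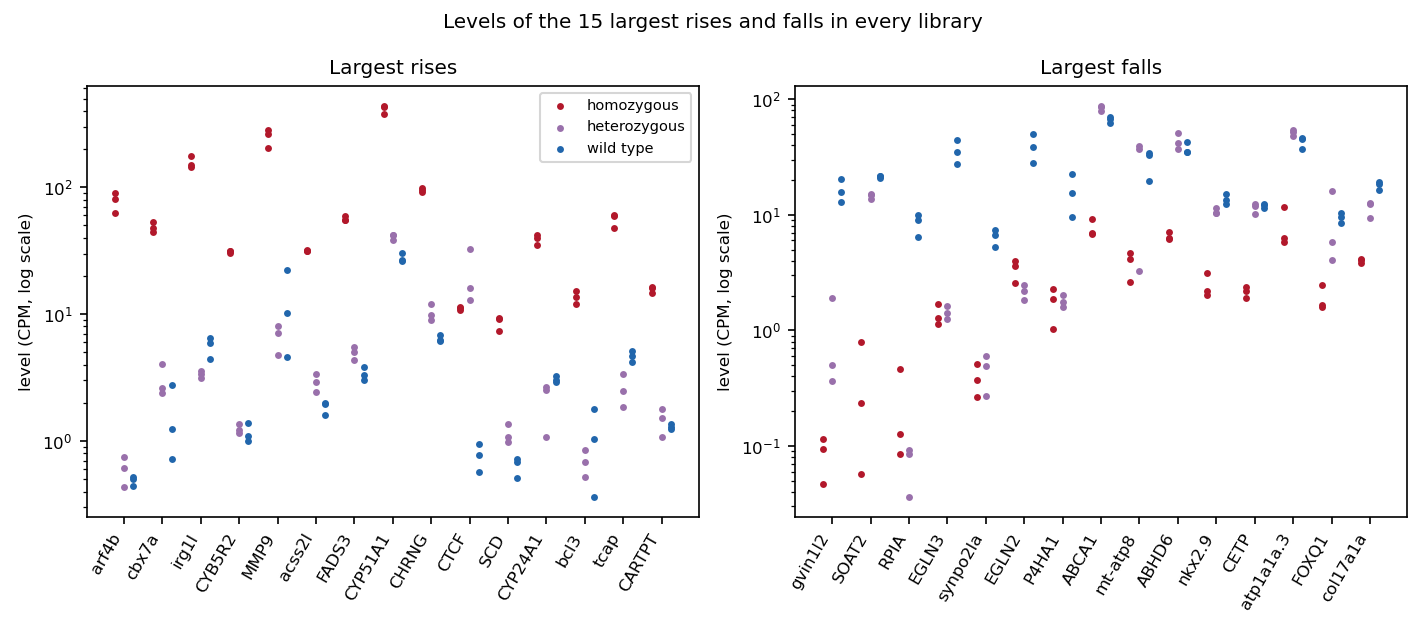
Level in every library (CPM, log scale) of the 15 genes with the largest rise and the 15 with the largest fall among called genes with at least 5 CPM in the higher genotype, no overlap between its libraries and those of the other, and no place in the lists set apart, with homozygous (red), heterozygous (purple) and wild-type (blue) pools side by side. In most rises, homozygous pools stand far above both other genotypes. Of these, acss2l, FADS3, CYP51A1, CHRNG and SCD were also called higher in heterozygous over wild-type pools, by less. CTCF, RPIA, EGLN3, synpo2la, EGLN2 and P4HA1 have homozygous and heterozygous pools together, away from wild type.

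Signalling through gp130, Jak kinases and Stat3 carries cytokine signals to the nucleus, and Socs proteins shut it off. Genes of this pathway were higher in homozygous embryos: 22 of 31 tested rose and 2 fell, with a median log2 fold change of 0.72, where all genes tested had a median of 0.02. The receptor subunit il6st (gp130) had 239, 256 and 235 CPM in homozygous, 50.4, 61.1 and 50.5 CPM in heterozygous and 45.4, 47.8 and 48.2 CPM in wild-type pools. Every homozygous pool was above every other pool, with a log2 fold change of 2.37 ± 0.07 (edgeR adjusted p = 1.56e-13). The leukemia inhibitory factor receptor gene lifrb averaged 12.4 ± 0.573 CPM in homozygous, 4.601 ± 0.511 in heterozygous and 2.76 ± 0.136 in wild-type embryos and rose by 2.16 ± 0.11. The transcription factor gene STAT3 had 131, 126 and 125 CPM in homozygous, 39.4, 41.3 and 42.6 CPM in heterozygous and 43.8, 44.1 and 42.2 CPM in wild-type pools, a rise of 1.55 ± 0.05. Its feedback inhibitor SOCS3 (ENSDARG00000026611) had 92.3, 88.9 and 80.1 CPM in homozygous, 11.1, 12.3 and 12.6 CPM in heterozygous and 14.2, 14.2 and 12.1 CPM in wild-type pools, a rise of 2.69 ± 0.08. Heterozygous embryos were above wild type for il6st and lifrb by 0.19 ± 0.07 and 0.74 ± 0.11 (adjusted p = 0.0393 and 8.01e-05), and their pools overlapped wild-type ones for STAT3 and SOCS3. The 2 members that fell were JAK2 at -0.37 ± 0.05, a kinase of the pathway, and stat5b at -0.31 ± 0.06, a factor of growth hormone signalling. Against their heterozygous siblings, 21 members were higher and 1 lower in homozygous embryos, where 39.8% of all genes were called (20.4% higher, 19.4% lower). Heterozygous against wild-type embryos gave 4 higher and 4 lower, where 29.8% of all genes were called (15.5% higher, 14.4% lower). The 3 comparisons share libraries and are not independent of each other.

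Effectors of inflammation had the highest median of the lists described. Of 32 tested, 23 rose and 2 fell, with a median of 1.46. irg1l, a relative of the enzyme that makes itaconate in activated macrophages, had 143, 177 and 149.7 CPM in homozygous, 3.12, 3.38 and 3.58 CPM in heterozygous and 4.45, 6.52 and 5.88 CPM in wild-type pools. Homozygous pools were far above the rest, and heterozygous pools were below wild type, with log2 fold changes of 4.78 ± 0.13 for homozygous and -0.77 ± 0.15 for heterozygous over wild type (edgeR adjusted p = 6.05e-10 and 0.00318). MMP9, a protease that cuts basement membrane, had 264, 283 and 202 CPM in homozygous, 4.79, 8.10 and 7.09 CPM in heterozygous and 4.61, 22.2 and 10.21 CPM in wild-type pools. Wild-type pools varied widely here and reached into the heterozygous range, while homozygous pools stood clear of both (log2 4.29 ± 0.52). irf9, which joins Stat factors in interferon signalling, averaged 32.1 ± 1.81 CPM in homozygous, 8.41 ± 0.706 in heterozygous and 4.51 ± 0.231 in wild-type embryos. TIMP2 (ENSDARG00000075261), an inhibitor of matrix proteases, averaged 71.6 ± 4.70 CPM in homozygous, 13.8 ± 1.06 in heterozygous and 10.4 ± 1.07 in wild-type embryos. Complement component c3a.1 rose by 0.43 ± 0.04, and bcl3, a nuclear partner of NF-kB, by 3.61 ± 0.41. The members that fell were NOS2 (ENSDARG00000031976), the inducible nitric oxide synthase, at -1.49 ± 0.08, and the membrane protease MMP14 (ENSDARG00000002235) at -0.37 ± 0.05. Against heterozygous siblings, 26 members were higher and 2 lower, where 20.4% of all genes were higher and 19.4% lower. Heterozygous against wild-type embryos gave 3 higher and 10 lower, where 15.5% of all genes were higher and 14.4% lower.

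Factors of the AP-1 complex, which cells make within minutes of a stimulus, rose in part. Of 25 AP-1 and immediate early genes tested, 10 rose and 5 fell (median 0.14). Leaving out any 1 homozygous or wild-type library gave 2 lower. FOSL2, a Fos-related partner in AP-1, had 63.1, 65.7 and 55.7 CPM in homozygous, 11.9, 12.7 and 11.4 CPM in heterozygous and 11.1, 11.997 and 12.5 CPM in wild-type pools, with homozygous pools above all others and a rise of 2.37 ± 0.07. JUNB (ENSDARG00000104773) rose by 1.45 ± 0.11, JUN by 0.81 ± 0.04 and the zinc finger factor KLF6 by 0.75 ± 0.05. The orphan nuclear receptor gene NR4A1 was at -1.51 ± 0.41, a call lost once any homozygous library or any wild-type library was left out, at an adjusted p of 0.0507 to 0.0751. The flow-responsive factor gene klf2b was at -0.70 ± 0.20, a call lost once any homozygous library or any wild-type library was left out, at an adjusted p of 0.0581 to 0.0878. The phosphatase gene DUSP1 fell (-0.23 ± 0.05).

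Markers of myeloid cells were measured beside the effectors. Of 23 tested, 7 rose (30.4%, against 23.5% of all genes) and 1 fell (median 0.24). Without homozygous replicate 1, or with the heterozygous libraries left out of the fit, 4 rose. LCP1, an actin bundler of leukocytes, averaged 26.7 ± 0.960 CPM in homozygous, 22.3 ± 1.51 in heterozygous and 16.8 ± 2.74 in wild-type embryos (log2 0.66 ± 0.09), and SPI1, the master factor of myeloid fate, averaged 5.003 ± 0.338 CPM in homozygous, 3.55 ± 0.185 in heterozygous and 3.57 ± 0.610 in wild-type embryos (log2 0.50 ± 0.13). The 1 that fell was CXCR4 (ENSDARG00000057633), a chemokine receptor gene, at -0.60 ± 0.08. The summed level of all tested members was 204, 199 and 205 CPM in homozygous and 184, 199 and 186 CPM in wild-type pools. In pools of whole embryos, more or fewer cells of a type cannot be told apart from more or less RNA per cell, here and in every tissue list that follows. The part of cell number in the rise of the effectors was not tested. Families of immune-type genes with many near-identical copies (fintrim, NLR, MHC class I and gvin genes) had 24 of 83 members higher and 6 lower. The higher share was 28.9%, against 23.5% of all genes, and single members are uncertain. gvin1l2, a large interferon-induced GTPase, had 0.114, 0.0942 and 0.0467 CPM in homozygous, 1.90, 0.507 and 0.362 CPM in heterozygous and 20.5, 15.7 and 13.0 CPM in wild-type pools, the largest fall by fold among the genes plotted, with heterozygous pools between the others. Homozygous pools of gvin1l2 were near the level that 3 counts give in one library (0.0428 to 0.0701 CPM). The fintrim gene ftr86 rose by 1.38 ± 0.07.

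**Figure D3:**
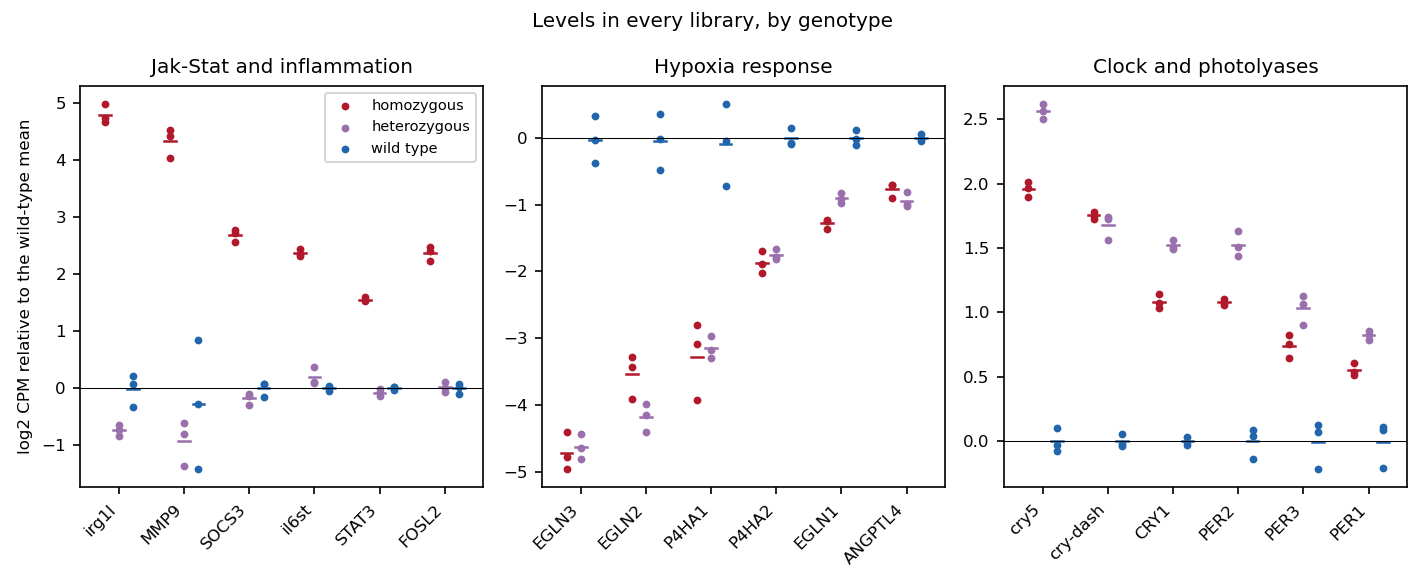
Level in every pool as log2 CPM relative to the wild-type mean, for 6 genes each of Jak-Stat signalling and inflammation (left), the hypoxia response (middle) and the clock and photolyases (right), with genes picked after their values were seen. Homozygous pools (red) stand alone in the left panel, and lie on the same side of wild type (blue) as heterozygous pools (purple) in the other panels. Short bars mark the mean of each genotype.

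Lipid genes outside cholesterol synthesis also moved. Factors of the SREBP family are known to switch on fatty acid genes along with sterol genes. Of 26 genes of fatty acid synthesis and desaturation tested, 15 rose and 3 fell (median 0.56). Heterozygous against wild-type embryos gave 11 higher and 1 lower, where 15.5% of all genes were higher. Homozygous against heterozygous siblings gave 16 higher and 4 lower. ELOVL2, which lengthens polyunsaturated fatty acids, had 59.7, 59.1 and 61.3 CPM in homozygous, 6.67, 7.40 and 8.32 CPM in heterozygous and 6.27, 4.70 and 5.49 CPM in wild-type pools. All homozygous pools were above the others, with a rise of 3.47 ± 0.09 (edgeR adjusted p = 2.78e-14). Outside the list, FADS3, of the fatty acid desaturase family, had 54.9, 55.2 and 59.3 CPM in homozygous, 4.33, 5.03 and 5.54 CPM in heterozygous and 3.83, 3.01 and 3.34 CPM in wild-type pools, a rise of 4.07 ± 0.10. ACLY (ENSDARG00000099079), which makes cytosolic acetyl-CoA, averaged 426 ± 15.4 CPM in homozygous, 176 ± 1.98 in heterozygous and 143 ± 2.98 in wild-type embryos (log2 1.58 ± 0.04). FASN, the fatty acid synthase, averaged 65.9 ± 1.94 CPM in homozygous, 34.7 ± 2.25 in heterozygous and 24.3 ± 1.37 in wild-type embryos (log2 1.44 ± 0.06), and SCD, which puts the first double bond into saturated chains, rose by 3.75 ± 0.18. acss2l, an acetyl-CoA synthetase relative also outside the list, rose by 4.08 ± 0.11. The falls were small to moderate, with the phosphatidate phosphatase LPIN1 at -1.04 ± 0.15, ACSS2 at -0.34 ± 0.07 and the triglyceride enzyme DGAT2 at -0.25 ± 0.06. CYP51A1, an enzyme of cholesterol synthesis whose symbol was outside the list set apart, averaged 416 ± 35.4 CPM in homozygous, 40.8 ± 2.32 in heterozygous and 27.7 ± 2.05 in wild-type embryos.

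Genes of sterol export, sterol esters and sterol-sensing receptors split, with 5 of 19 higher and 5 lower (median -0.17). Each share was 26.3%, near the 23.5% higher and 21.1% lower of all genes. The cholesterol exporter ABCA1 had 6.98, 6.79 and 9.21 CPM in homozygous, 88.2, 86.2 and 78.4 CPM in heterozygous and 68.0, 69.9 and 62.9 CPM in wild-type pools. Homozygous pools were below all others by several-fold, while heterozygous pools were above wild type, at -3.14 ± 0.10 for homozygous and 0.33 ± 0.08 for heterozygous over wild type (edgeR adjusted p = 2.83e-11 and 0.00935). Its paralogue abca1b rose by 0.37 ± 0.04. SOAT2, which esterifies cholesterol, had 0.0571, 0.236 and 0.795 CPM in homozygous, 14.9, 15.3 and 13.8 CPM in heterozygous and 21.8, 20.8 and 21.7 CPM in wild-type pools. MYLIP (ENSDARG00000008859), a ligase that marks the LDL receptor for breakdown, averaged 3.23 ± 0.238 CPM in homozygous, 13.7 ± 0.896 in heterozygous and 12.5 ± 0.214 in wild-type embryos (log2 -1.96 ± 0.09). STARD4, a carrier of sterol between membranes, averaged 22.03 ± 0.137 CPM in homozygous, 6.69 ± 0.485 in heterozygous and 5.18 ± 0.112 in wild-type embryos (log2 2.09 ± 0.08). Outside the list, the ester transfer protein gene CETP averaged 2.17 ± 0.235 CPM in homozygous, 11.5 ± 1.096 in heterozygous and 12.04 ± 0.568 in wild-type embryos. The lipid hydrolase gene ABHD6 (ENSDARG00000060756), also outside it, averaged 6.50 ± 0.480 CPM in homozygous, 43.3 ± 6.88 in heterozygous and 37.5 ± 4.22 in wild-type embryos.

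Sphingolipid genes rose more often than they fell, with 12 of 28 higher and 5 lower (median 0.22). The lower count was 3 with homozygous library 1 or 2 or wild-type library 3 left out and 2 without homozygous replicate 3 or wild-type replicate 1. SPTLC2 (ENSDARG00000074287), a subunit of the first enzyme of the pathway, averaged 54.2 ± 2.05 CPM in homozygous, 38.5 ± 2.15 in heterozygous and 29.8 ± 0.602 in wild-type embryos (log2 0.87 ± 0.06). DEGS2, a ceramide desaturase and hydroxylase, rose by 1.42 ± 0.10, and ceramide synthase CERS2 (ENSDARG00000058992) by 0.58 ± 0.05. SGPL1, which breaks down sphingosine phosphate, fell (-0.56 ± 0.06), as did ceramide synthase CERS1 (-0.51 ± 0.10). Apolipoprotein and plasma protein genes, made in the yolk syncytial layer and liver, had 7 of 26 higher and 9 lower. The shares were 26.9% higher and 34.6% lower, against 23.5% and 21.1% of all genes. apobb.1, an apolipoprotein B gene, had 9543, 9546 and 9565 CPM in homozygous pools, against 7715, 7601 and 7212 CPM in wild-type pools (log2 0.35 ± 0.04), and all homozygous pools were the higher ones. apoc2, the activator of lipoprotein lipase, had 161, 158 and 152 CPM in homozygous, 373, 354 and 348 CPM in heterozygous and 401, 415 and 436 CPM in wild-type pools, and fell against both other genotypes (log2 -1.41 ± 0.05 against wild type). apoa4a fell by more than its relatives, at -1.26 ± 0.11 against -0.79 ± 0.08 for apoa4b.3 and -0.39 ± 0.04 for apoa4b.2, but these differences between genes were not tested.

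Genes of the stress pathways moved in part. Of 30 genes of the unfolded protein and amino acid stress response tested, 14 rose and 8 fell. The shares were 46.7% higher and 26.7% lower, against 23.5% and 21.1% of all genes. Those that rose include targets of the factor Atf4. DDIT3, the stress factor CHOP, had 61.6, 66.1 and 55.1 CPM in homozygous, 17.0, 15.4 and 16.4 CPM in heterozygous and 14.1, 14.4 and 14.3 CPM in wild-type pools, with homozygous pools above all others (log2 2.09 ± 0.07, edgeR adjusted p = 1.46e-13). sesn2, an inhibitor of mTORC1, rose by 1.55 ± 0.12, the amino acid transporter chain SLC3A2 by 1.000 ± 0.07, and EDEM1, which sends misfolded glycoproteins to degradation, by 0.55 ± 0.06. Those that fell include chaperones of the endoplasmic reticulum. HSPA5, the chaperone BiP, averaged 249 ± 17.8 CPM in homozygous, 247 ± 4.44 in heterozygous and 389 ± 38.6 in wild-type embryos (log2 -0.64 ± 0.07), HSP90B1 was at -0.97 ± 0.09 and the disulphide isomerases PDIA4 and PDIA6 were at -0.59 ± 0.06 and -0.49 ± 0.06. For these chaperones, heterozygous pools were also below wild type. EIF2AK3, the kinase PERK of this response, picked after its values were seen, had 0.0143, 0.0628 and 0.0935 CPM in homozygous, 0.247, 0.118 and 0.253 CPM in heterozygous and 4.87, 4.67 and 3.64 CPM in wild-type pools.

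Genes of vesicle coats and Arf proteins, which carry cargo between the endoplasmic reticulum and Golgi, had 18 of 37 higher and 4 lower (median 0.19). Without wild-type replicate 1, 2 were lower. Beside arf4b, the coatomer subunit COPA had 539.5, 529.9 and 502 CPM in homozygous, 344, 339.9 and 355 CPM in heterozygous and 331, 333 and 333 CPM in wild-type pools, a rise of 0.66 ± 0.04. ARF6, an Arf of the plasma membrane, rose by 0.54 ± 0.07 and its family's regulator ARFGAP3 by 0.53 ± 0.07. Among the falls were the secretory pathway factor CREB3L1 at -0.40 ± 0.07, the coat subunit SEC24D at -0.17 ± 0.06, a call lost once homozygous library 2 or wild-type library 1 or 2 was left out, at an adjusted p of 0.0622 to 0.145, and ARFGEF1 at -0.18 ± 0.06, a call lost once wild-type library 1 was left out, at an adjusted p of 0.0630.

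The p53 and DNA damage list had 14 of 27 higher (51.9%, against 23.5% of all genes) and 5 lower (18.5%, against 21.1%). GADD45G (ENSDARG00000113103), a growth arrest gene, averaged 30.1 ± 1.38 CPM in homozygous, 10.1 ± 1.184 in heterozygous and 16.3 ± 0.502 in wild-type embryos (log2 0.89 ± 0.08), and the pro-death gene BAX rose by 0.52 ± 0.05. The oxidative stress list of Nrf2 targets had 12 of 23 higher (52.2%) and 5 lower (21.7%, near the 21.1% of all genes). Without homozygous replicate 2, 3 were lower. HMOX1, which breaks down haem, averaged 57.3 ± 5.16 CPM in homozygous, 51.4 ± 1.85 in heterozygous and 29.0 ± 2.63 in wild-type embryos, so that heterozygous embryos were close to homozygous ones (log2 0.98 ± 0.07 for homozygous over wild type, 0.16 ± 0.07 over heterozygous). NFE2L2, the factor Nrf2 itself, averaged 48.7 ± 4.98 CPM in homozygous, 26.8 ± 0.309 in heterozygous and 29.2 ± 0.249 in wild-type embryos (log2 0.74 ± 0.07), and TALDO1, of the pentose phosphate pathway, rose by 0.70 ± 0.04. Catalase (CAT) had 13.2, 13.7 and 11.7 CPM in homozygous pools, against 27.8, 28.9 and 29.4 CPM in wild-type pools, a fall to -1.16 ± 0.08 on the log2 scale.

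Heat shock and chaperone genes had 5 of 26 higher (19.2%, against 23.5% of all genes) and 6 lower (23.1%, against 21.1%). The cochaperone BAG3 rose by 0.71 ± 0.06, while muscle chaperone hsp90aa1.1 had 268, 257 and 368 CPM in homozygous pools, against 570.0, 646 and 651 CPM in wild-type pools (-1.07 ± 0.15). Collagen chaperone SERPINH1 (ENSDARG00000075954) fell (-1.01 ± 0.06). Iron and copper genes had 6 of 18 higher (33.3%, against 23.5% of all genes) and 4 lower (22.2%, against 21.1%). The lower count was 1 without homozygous replicate 1 and 2 without homozygous replicate 2 or wild-type replicate 1 or 2. The iron store gene FTH1, a ferritin heavy chain, had 34.7, 37.4 and 39.2 CPM in homozygous, 11.4, 11.8 and 13.7 CPM in heterozygous and 7.61, 8.58 and 8.67 CPM in wild-type pools, with homozygous pools above all others (log2 2.16 ± 0.08). CP, the copper enzyme ceruloplasmin, averaged 186 ± 13.2 CPM in homozygous, 91.5 ± 2.63 in heterozygous and 135 ± 9.56 in wild-type embryos (log2 0.46 ± 0.06), and ncoa4, the receptor that delivers ferritin for breakdown, averaged 116 ± 3.199 CPM in homozygous, 116 ± 3.34 in heterozygous and 179.8 ± 14.9 in wild-type embryos (log2 -0.63 ± 0.06). For ncoa4, heterozygous and homozygous embryos were alike and both were under wild type.

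Low oxygen is sensed by prolyl hydroxylases, which mark the factor Hif for destruction and some of which are themselves Hif targets in many cells. Of 28 hypoxia response genes tested, 6 rose (21.4%, against 23.5% of all genes) and 14 fell (50%, against 21.1%) in homozygous embryos. EGLN3, a Hif prolyl hydroxylase, had 1.14, 1.29 and 1.68 CPM in homozygous, 1.64, 1.42 and 1.27 CPM in heterozygous and 44.6, 34.7 and 27.5 CPM in wild-type pools. All 6 mutant pools were below the 3 wild-type pools, and homozygous pools overlapped heterozygous ones, with log2 fold changes of -4.72 ± 0.21 over wild type and -0.11 ± 0.25 over heterozygous (edgeR adjusted p = 8.91e-08 and 0.771). A further Hif prolyl hydroxylase, EGLN2, had 3.60, 4.01 and 2.57 CPM in homozygous, 2.19, 1.82 and 2.46 CPM in heterozygous and 49.98, 38.6 and 27.96 CPM in wild-type pools, with log2 fold changes of -3.49 ± 0.26 and 0.67 ± 0.30 in the same order. The third, EGLN1 (ENSDARG00000004632), had 9.77, 10.7 and 10.6 CPM in homozygous, 14.2, 13.4 and 12.8 CPM in heterozygous and 27.3, 24.9 and 23.4 CPM in wild-type pools and fell by less (-1.28 ± 0.08).

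P4HA1 and P4HA2, prolyl hydroxylases of the same class that act on collagen in the endoplasmic reticulum, were also below wild type in both mutant genotypes. P4HA1 had 1.85, 1.04 and 2.27 CPM in homozygous, 1.61, 1.76 and 2.03 CPM in heterozygous and 22.5, 9.62 and 15.4 CPM in wild-type pools, and P4HA2 had 18.1, 16.3 and 20.6 CPM in homozygous, 18.999, 19.4 and 21.0 CPM in heterozygous and 74.1, 63.1 and 63.0 CPM in wild-type pools. In both, mutant pools of either genotype were below wild type, at -3.22 ± 0.40 and -1.87 ± 0.09 for homozygous over wild type and at -0.08 ± 0.43 and -0.11 ± 0.09 over heterozygous (adjusted p = 0.903 and 0.319). Picked after their values were seen, HIF1AN, the asparagine hydroxylase that inhibits Hif, averaged 24.8 ± 0.539 CPM in homozygous, 22.8 ± 0.640 in heterozygous and 83.1 ± 10.98 in wild-type embryos, and DDIT4, a Hif target that restrains mTORC1, averaged 49.1 ± 2.37 CPM in homozygous, 47.4 ± 4.02 in heterozygous and 117 ± 11.8 in wild-type embryos.

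Some other members of the hypoxia list differed between homozygous and heterozygous pools. PFKFB4, which sets the level of a glycolysis activator, had 122, 134 and 126 CPM in homozygous, 50.7, 53.8 and 54.6 CPM in heterozygous and 42.3, 41.3 and 45.04 CPM in wild-type pools and rose by 1.57 ± 0.05. IGFBP1, which binds insulin-like growth factors, averaged 51.5 ± 4.79 CPM in homozygous, 9.51 ± 1.2505 in heterozygous and 21.7 ± 3.11 in wild-type embryos, with heterozygous embryos below wild type. NDRG1 (ENSDARG00000032849) averaged 44.8 ± 2.23 CPM in homozygous, 70.7 ± 1.42 in heterozygous and 81.9 ± 3.31 in wild-type embryos and the carbonic anhydrase gene ca9 averaged 1.73 ± 0.284 CPM in homozygous, 6.49 ± 0.742 in heterozygous and 5.59 ± 0.430 in wild-type embryos, both lowest in homozygous embryos. For the list as a whole, homozygous against heterozygous siblings gave 12 higher and 4 lower, and heterozygous against wild-type embryos gave 3 higher and 15 lower.

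Enzymes of glycolysis fell more often than they rose, with 8 of 33 higher (24.2%, against 23.5% of all genes) and 13 lower (39.4%, against 21.1%). Enzyme forms used in muscle were among those that fell, with ALDOA (ENSDARG00000034470) at -0.50 ± 0.04, ALDOA (ENSDARG00000011665) at -0.56 ± 0.04, PFKM (ENSDARG00000014179) at -0.98 ± 0.07 and PKM (ENSDARG00000099860) at -0.85 ± 0.06. The other PKM ID (ENSDARG00000099730) rose by 0.37 ± 0.05. The neuronal enolase eno2 rose by 0.58 ± 0.06 and LDHB, a lactate dehydrogenase, by 0.27 ± 0.05. Whether these follow the muscle and neuron markers described below was not tested. In the glycolysis list, homozygous against heterozygous siblings gave 15 higher and 8 lower. Heterozygous against wild-type embryos gave 1 higher and 18 lower. RPIA, of the pentose phosphate pathway, had 0.0856, 0.126 and 0.467 CPM in homozygous, 0.0927, 0.0844 and 0.0362 CPM in heterozygous and 8.96, 9.99 and 6.47 CPM in wild-type pools, with all 6 mutant pools far below wild type.

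Some respiratory chain genes were lower. Of 84 nuclear genes for oxidative phosphorylation tested, 3 rose and 30 fell (median -0.11). Without homozygous replicate 2, 18 fell, a share near the 21.1% of all genes called lower with every library kept, and 1 rose when homozygous library 1 or 3 or wild-type library 3 was left out. SDHD (ENSDARG00000030139), a subunit of complex II, averaged 42.8 ± 0.788 CPM in homozygous, 58.7 ± 3.60 in heterozygous and 66.3 ± 1.42 in wild-type embryos (log2 -0.63 ± 0.05) and the ATP synthase subunit ATP5F1A was at -0.26 ± 0.04. Of 13 mitochondrially encoded genes tested, 11 fell (median -0.45). MT-CO1, a core subunit of complex IV, had 8121, 7963 and 7506 CPM in homozygous, 7800.1, 7909 and 7206 CPM in heterozygous and 9042, 8629.8 and 9616 CPM in wild-type pools, and MT-CYB, of complex III, had 2559, 2452 and 2136 CPM in homozygous, 2536, 2488 and 2057 CPM in heterozygous and 3401, 3397 and 3789 CPM in wild-type pools. In both, homozygous and heterozygous pools lay together below wild type. MT-ATP6, of the ATP synthase, averaged 2506 ± 8.95 CPM in homozygous, 3148 ± 313 in heterozygous and 3664 ± 200.2 in wild-type embryos. mt-atp8, its neighbour subunit, had 4.71, 4.15 and 2.62 CPM in homozygous, 39.5, 36.9 and 3.29 CPM in heterozygous and 19.5, 34.2 and 32.8 CPM in wild-type pools. One heterozygous pool was as low as the homozygous ones, and the call against wild type was lost once any homozygous library or any wild-type library was left out and with the replicate number as a block or limma-voom, at an adjusted p of 0.0611 to 0.141.

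Clock genes keep daily time in most zebrafish cells and several respond to light, as do photolyases, which use light to repair DNA. Of 37 tested, 16 rose and 1 fell in homozygous embryos (median 0.22). cry5, a photolyase of the cryptochrome family, had 13.1, 12.4 and 13.4 CPM in homozygous, 18.9, 19.8 and 20.4 CPM in heterozygous and 3.57, 3.27 and 3.16 CPM in wild-type pools. cry-dash, of the same family, had 36.1, 36.7 and 37.6 CPM in homozygous, 32.3, 36.1 and 36.4 CPM in heterozygous and 11.4, 10.8 and 10.6 CPM in wild-type pools. All mutant pools were above wild type for both genes, with rises of 1.96 ± 0.09 and 1.75 ± 0.06, and cry5 was higher still in heterozygous pools. The light-induced repressor gene PER2 had 55.9, 56.5 and 57.8 CPM in homozygous, 83.1, 76.3 and 72.5 CPM in heterozygous and 27.6, 28.5 and 24.4 CPM in wild-type pools, and CRY1 (ENSDARG00000045768), a cryptochrome repressor of the clock, had 48.9, 51.5 and 47.7 CPM in homozygous, 65.5, 68.9 and 66.4 CPM in heterozygous and 23.9, 23.2 and 22.9 CPM in wild-type pools. For both, homozygous pools lay between heterozygous and wild-type ones, at 1.08 ± 0.07 and 1.08 ± 0.05 over wild type and -0.45 ± 0.06 and -0.44 ± 0.05 over heterozygous (edgeR adjusted p = 1.99e-05 and 2.69e-06). The hour at which each pool was taken is not given in the sources used here, and its part in these values was not tested. The orphan receptor gene RORA, which activates the clock loop, was the 1 member that fell (-0.43 ± 0.10).

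In the Hedgehog pathway, a ligand from floor plate and notochord sets ventral cell fates in the neural tube and somites. Of 21 members tested, 1 rose and 16 fell (median -0.47). The ligand gene SHH (ENSDARG00000038867) averaged 8.39 ± 0.0501 CPM in homozygous, 10.18 ± 0.342 in heterozygous and 13.0 ± 0.194 in wild-type embryos (log2 -0.64 ± 0.08), and the coreceptor gene GAS1 (ENSDARG00000067984) had 33.4, 31.3 and 34.4 CPM in homozygous, 61.6, 61.8 and 52.6 CPM in heterozygous and 77.9, 76.0 and 75.2 CPM in wild-type pools (log2 -1.21 ± 0.06). Factor GLI3 was at -0.84 ± 0.06. Among members that fell were also the neural tube factors NKX6-2 and OLIG2. NKX6-2 had 16.3, 16.2 and 17.8 CPM in homozygous, 43.0, 39.4 and 34.0 CPM in heterozygous and 45.4, 40.1 and 39.3 CPM in wild-type pools, OLIG2, of motor neuron and oligodendrocyte progenitors, had 10.1, 9.05 and 12.2 CPM in homozygous, 24.1, 21.9 and 24.5 CPM in heterozygous and 31.4, 31.1 and 29.0 CPM in wild-type pools, and nkx2.9, outside the list and expressed next to the floor plate, had 2.197, 2.04 and 3.13 CPM in homozygous, 11.4, 10.5 and 10.4 CPM in heterozygous and 15.02, 13.4 and 12.5 CPM in wild-type pools. Homozygous pools were the lowest for each, with log2 fold changes of -1.31 ± 0.08, -1.56 ± 0.09 and -2.49 ± 0.13 against wild type. Picked after its values were seen, the ligand-binding inhibitor gene HHIP had 0.985, 1.26 and 1.26 CPM in homozygous, 0.587, 0.236 and 0.145 CPM in heterozygous and 0.207, 0.125 and 0.0735 CPM in wild-type pools and was the 1 member that rose (3.14 ± 0.48), at a level under the stricter filter of 1 CPM. Against heterozygous siblings, 1 Hedgehog member was higher and 16 were lower.

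Wnt genes were lower too, with 2 of 27 higher and 16 lower (median -0.27). The feedback inhibitor genes AXIN2 and NKD1, which Wnt signals induce, were both lower, AXIN2 with a mean of 93.1 ± 1.296 CPM in homozygous, 133 ± 8.64 in heterozygous and 138 ± 0.702 in wild-type embryos and NKD1 with a mean of 56.4 ± 1.70 CPM in homozygous, 92.6 ± 7.31 in heterozygous and 97.3 ± 3.58 in wild-type embryos. The secreted antagonist gene SFRP5 was at -0.89 ± 0.06 and the ligand gene WNT11 at -0.62 ± 0.06. The 2 that rose, picked after their values were seen, were the ligand gene WNT5A at 0.50 ± 0.15, a call lost once homozygous library 1 or wild-type library 2 was left out, at an adjusted p of 0.0776 to 0.0874, and the secreted inhibitor gene dkk1a at 0.69 ± 0.16. The Bmp list had 5 of 25 higher (20%, against 23.5% of all genes) and 9 lower (36%, against 21.1%). Its target msx3, a dorsal neural tube factor, had 23.1, 22.5 and 26.8 CPM in homozygous, 49.2, 50.1 and 51.2 CPM in heterozygous and 73.5, 70.32 and 69.8 CPM in wild-type pools and fell to -1.57 ± 0.06 on the log2 scale, while the antagonist gene chrd (chordin) rose by 1.12 ± 0.10 and the signal transducer gene smad9 by 0.85 ± 0.07.

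Fgf genes were split evenly, with 7 of 25 higher (28%, against 23.5% of all genes) and 7 lower (28%, against 21.1%). Among those that rose were the inhibitors SPRED3 at 0.90 ± 0.10 and SPRY4 at 0.42 ± 0.05 and the effector etv5b at 0.44 ± 0.07. Among those that fell were the receptors FGFR2 at -0.67 ± 0.05, FGFR3 at -0.77 ± 0.10 and fgfr4 at -0.27 ± 0.04. The retinoic acid list had 5 of 25 higher (20%, against 23.5% of all genes) and 8 lower (32%, against 21.1%). Without homozygous replicate 1 or any 1 wild-type library, 3 were higher. The breakdown enzyme gene CYP26B1 had 23.1, 23.8 and 24.5 CPM in homozygous, 50.7, 48.4 and 44.8 CPM in heterozygous and 60.1, 56.7 and 56.2 CPM in wild-type pools, with homozygous pools below all others (log2 -1.28 ± 0.06), and its relative CYP26A1 was at -0.51 ± 0.06, while CYP26C1 rose by 0.26 ± 0.06.

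Hox genes, which mark position along the body axis, fell by small amounts: 26 of 44 tested were lower and 3 higher (median -0.31). With homozygous library 2 or 3 or wild-type library 1 or 2 left out, 1 was higher. HOXB8 averaged 41.0 ± 0.913 CPM in homozygous, 41.5 ± 1.02 in heterozygous and 59.3 ± 1.502 in wild-type embryos (log2 -0.53 ± 0.05). HOXB13, of the tail end, averaged 4.27 ± 0.371 CPM in homozygous, 7.18 ± 0.526 in heterozygous and 6.85 ± 0.149 in wild-type embryos (log2 -0.68 ± 0.10), and the hindbrain genes hoxa2b and HOXA3 were at -0.51 ± 0.07 and -0.40 ± 0.05, so members from head to tail were among those that fell. Against heterozygous siblings, 13 were lower and 3 higher. Heterozygous against wild-type embryos gave 15 lower and 0 higher.

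Polycomb genes, which silence Hox and other developmental loci, had 5 of 21 higher (23.8%, against 23.5% of all genes) and 7 lower (33.3%, against 21.1%). Without wild-type replicate 3, 3 were higher. Beside cbx7a, the methyltransferase gene ezh1 rose by 1.23 ± 0.08, while JARID2 (ENSDARG00000062268), a recruiter of the complex, and cbx2, a further chromobox gene, were at -0.88 ± 0.09 and -0.35 ± 0.05. CTCF, which bounds chromatin loops, had 11.3, 11.2 and 10.8 CPM in homozygous, 12.9, 16.2 and 32.7 CPM in heterozygous and 0.777, 0.955 and 0.569 CPM in wild-type pools. Both mutant genotypes were above wild type, heterozygous pools being the highest and widely spread.

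**Figure D4:**
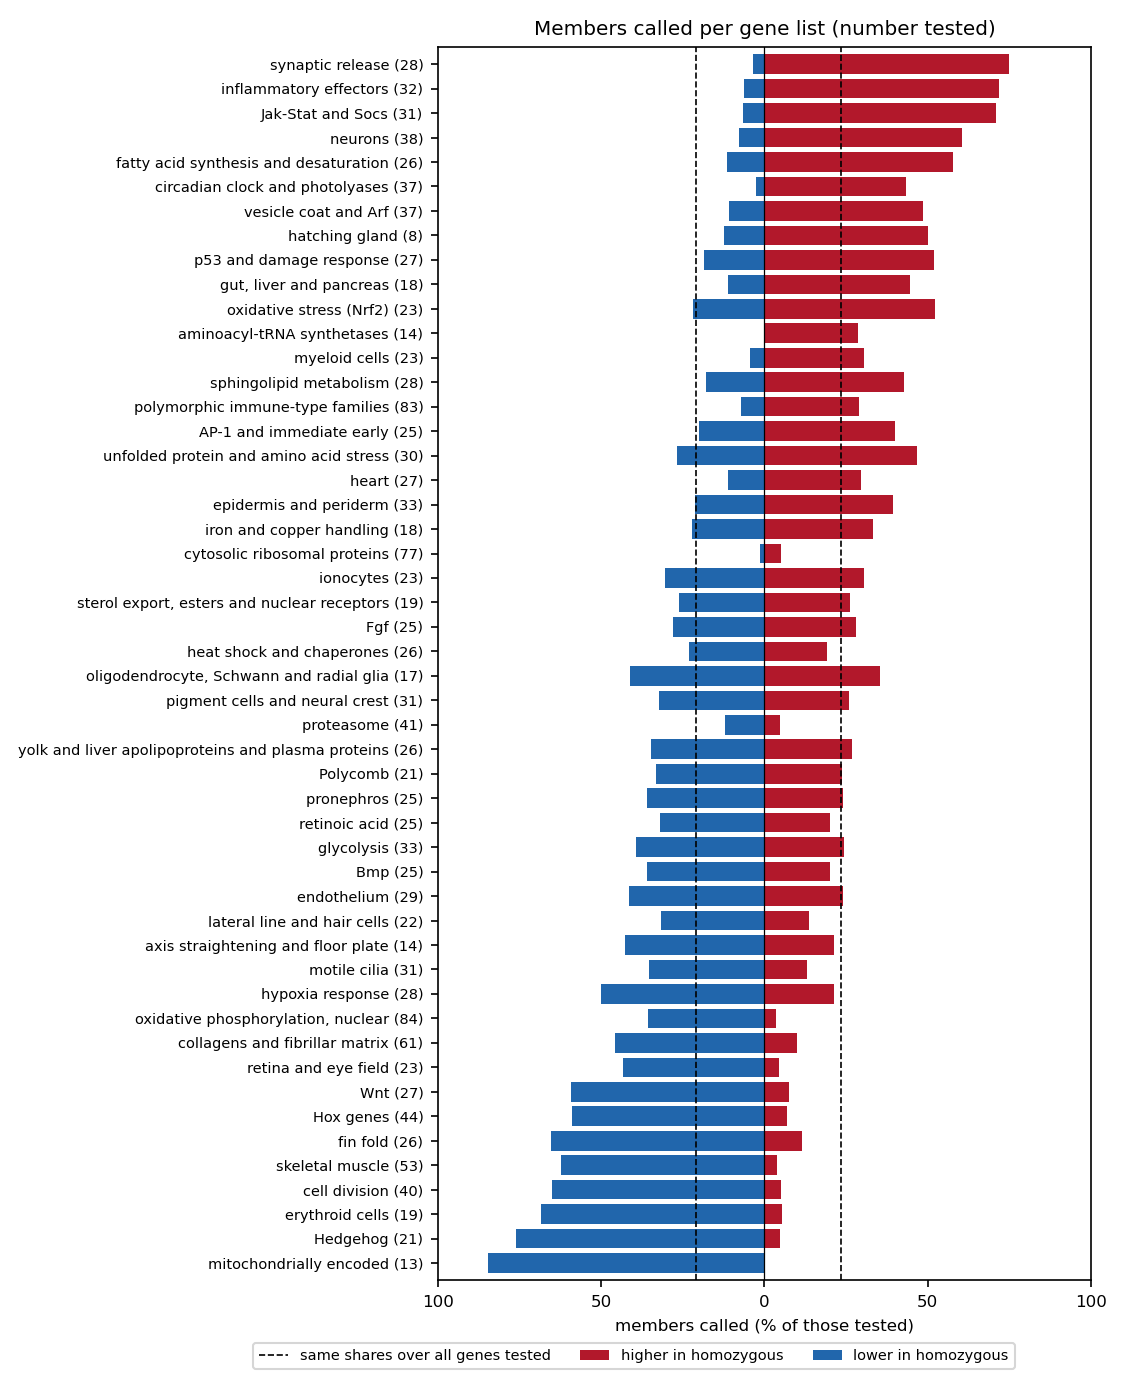
Share of tested members called higher (red, right) and lower (blue, left) in homozygous embryos for each of 50 gene lists, ordered by the difference of both shares, with the number tested in parentheses. Dashed lines mark the shares over all genes tested, 23.5% higher and 21.1% lower.

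Genes of cell division were lower by small amounts, with 2 of 40 higher and 26 lower (median -0.23). The replicative helicase genes MCM2, MCM3 and MCM5 were at -0.44 ± 0.05, -0.42 ± 0.05 and -0.49 ± 0.05. CCNE2, the cyclin that starts S phase, had 55.0, 57.6 and 58.9 CPM in homozygous, 69.6, 68.7 and 67.7 CPM in heterozygous and 94.5, 90.3 and 92.9 CPM in wild-type pools, and the homozygous pools were below all others (log2 -0.70 ± 0.05). RRM2 (ENSDARG00000078069), a subunit of the enzyme that makes deoxynucleotides, went the other way (0.23 ± 0.06).

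Neuronal genes were higher. Of 38 neuron markers tested, 23 rose and 3 fell (median 0.41), and of 28 synaptic release genes, which include some of the same genes, 21 rose and 1 fell (median 0.45). The 1 that fell was SYNPR, a synaptic vesicle protein picked after its values were seen, at -1.04 ± 0.28. ELAVL3, an RNA-binding protein of newborn neurons, had 966, 997 and 934 CPM in homozygous, 552, 538 and 523 CPM in heterozygous and 631, 602 and 539.6 CPM in wild-type pools, with homozygous pools above all others (log2 0.71 ± 0.05, edgeR adjusted p = 6.87e-09). The neurofilament gene nefma averaged 89.3 ± 3.59 CPM in homozygous, 33.6 ± 0.518 in heterozygous and 38.7 ± 0.946 in wild-type embryos (log2 1.21 ± 0.05). SLC18A3 (ENSDARG00000006356), which loads acetylcholine into vesicles of motor neurons, rose by 0.88 ± 0.07. The vesicle fusion gene vamp2 rose by 0.80 ± 0.09, and the calcium sensor gene SYT1 by 0.46 ± 0.06.

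The 3 members of the neuron list that fell were neurog1, ascl1a and the neurofilament gene nefla (-0.34 ± 0.11), a call lost once homozygous library 2 or 3 or wild-type library 1 was left out, at an adjusted p of 0.0653 to 0.0693. neurog1, a proneural factor, had 44.6, 42.2 and 47.3 CPM in homozygous, 35.3, 31.9 and 32.1 CPM in heterozygous and 73.6, 70.6 and 69.1 CPM in wild-type pools (log2 -0.67 ± 0.06), and ascl1a, a further one, averaged 64.2 ± 1.54 CPM in homozygous, 52.2 ± 2.14 in heterozygous and 78.2 ± 5.30 in wild-type embryos (log2 -0.28 ± 0.06). For neurog1 and ascl1a, heterozygous pools were the lowest of the 3 genotypes. Against heterozygous siblings, 30 neuron markers were higher, and heterozygous against wild-type embryos gave 1 higher and 13 lower.

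Glial genes divided, with 6 of 17 higher and 7 lower. The radial glia filament gene GFAP had 142, 142 and 135 CPM in homozygous, 263, 259 and 247 CPM in heterozygous and 284, 299 and 308 CPM in wild-type pools and the glutamate transporter gene SLC1A3 (ENSDARG00000104431) averaged 143 ± 9.51 CPM in homozygous, 263 ± 6.36 in heterozygous and 273 ± 13.0 in wild-type embryos, both lowest in homozygous embryos (log2 -1.09 ± 0.05 and -0.93 ± 0.05). The fatty acid binding protein gene FABP7 (ENSDARG00000007697), also of radial glia, rose (0.60 ± 0.05), as did glutamine synthetase GLUL (ENSDARG00000099776) (0.47 ± 0.06). S100B, a calcium-binding protein of glia, averaged 6.96 ± 1.26 CPM in homozygous, 1.88 ± 0.126 in heterozygous and 2.43 ± 0.669 in wild-type embryos (log2 1.54 ± 0.18).

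Retina and eye field genes fell more often than they rose, with 1 of 23 higher and 10 lower (median -0.35). The eye master factor genes PAX6 (ENSDARG00000103379) and PAX6 (ENSDARG00000045936) were both lower. The first averaged 100.02 ± 5.23 CPM in homozygous, 122 ± 9.04 in heterozygous and 144 ± 4.84 in wild-type embryos, and the second averaged 56.2 ± 2.32 CPM in homozygous, 71.9 ± 8.31 in heterozygous and 85.0 ± 1.67 in wild-type embryos. The telencephalon gene foxg1b was at -0.66 ± 0.09, and SIX3 (ENSDARG00000054879), of the forebrain and eye, was the 1 member that rose (0.24 ± 0.06). Lateral line and hair cell genes had 3 of 22 higher and 7 lower. Without homozygous replicate 2, 4 were lower. cldnb, a tight junction gene of the lateral line primordium and other epithelia, had 119, 123.4 and 112 CPM in homozygous, 60.6, 61.3 and 59.8 CPM in heterozygous and 55.3, 57.0 and 55.7 CPM in wild-type pools and rose (1.07 ± 0.05), while the sensory progenitor genes SOX2 and EYA1 were at -0.54 ± 0.05 and -0.39 ± 0.05.

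Genes of motile cilia were lower more often, with 4 of 31 higher and 11 lower. Of 2 ciliary factor genes, RFX2 was at -0.67 ± 0.05 and FOXJ1 was at 0.31 ± 0.07. The outer dynein arm gene DNAH5 was at -0.54 ± 0.09 and the arm assembly gene spag1a at 0.70 ± 0.07. The list on axis straightening and the floor plate had 3 of 14 higher (21.4%, against 23.5% of all genes) and 6 lower (42.9%, against 21.1%). Leaving out homozygous library 1 or 2 or wild-type library 1 gave 1 higher. The guidance cue gene NTN1 (ENSDARG00000022531), made by the floor plate, averaged 28.4 ± 0.899 CPM in homozygous, 43.2 ± 2.53 in heterozygous and 53.3 ± 4.88 in wild-type embryos (log2 -0.91 ± 0.07). urp2, a urotensin-related peptide of spinal neurons that contact cerebrospinal fluid, picked after its values were seen, had 2.28, 2.92 and 2.71 CPM in homozygous, 2.01, 2.23 and 1.70 CPM in heterozygous and 1.55, 1.85 and 1.32 CPM in wild-type pools and rose by 0.74 ± 0.18.

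Skeletal muscle genes were lower and held many of the largest losses in CPM. Of 53 tested, 2 rose and 33 fell (median -0.28). actc1b, a sarcomeric actin and among the most abundant genes, had 10845, 11158 and 10224 CPM in homozygous, 13822, 14041 and 13102 CPM in heterozygous and 15038, 15771 and 15936 CPM in wild-type pools. The homozygous pools were the lowest and the wild-type pools the highest, with heterozygous pools between them (log2 -0.54 ± 0.04). A further sarcomeric actin, ACTA1 (ENSDARG00000055618), had 1634, 1679 and 1661 CPM in homozygous, 3831, 3768 and 3598 CPM in heterozygous and 3706, 3962 and 3905 CPM in wild-type pools, so that homozygous pools alone were low (-1.22 ± 0.04), and the fast myosin gene myhz1.1 averaged 6138 ± 221 CPM in homozygous, 7299 ± 39.5 in heterozygous and 8985 ± 149 in wild-type embryos. The calcium pump gene atp2a1, the creatine kinase gene ckmb and the tropomyosin gene tpma were at -0.28 ± 0.04, -0.28 ± 0.05 and -0.43 ± 0.04. KLHL41 (ENSDARG00000068888), which steadies thin filaments, and the factor gene MEF2D were the 2 members that rose, by 0.64 ± 0.08 and 0.26 ± 0.05. The summed level of the list was 70285, 70482 and 67355 CPM in homozygous and 87446, 90650.4 and 93042 CPM in wild-type pools. Outside the list, muscle genes moved in both directions. synpo2la, an actin-associated protein of striated muscle, had 0.514, 0.267 and 0.374 CPM in homozygous, 0.494, 0.270 and 0.597 CPM in heterozygous and 7.33, 6.67 and 5.29 CPM in wild-type pools, both mutant genotypes being low. The Z disc gene tcap rose, with 60.01, 58.8 and 48.0 CPM in homozygous and 5.13, 4.64 and 4.21 CPM in wild-type pools. The muscle receptor gene CHRNG rose too, with 92.4, 95.9 and 98.5 CPM in homozygous and 6.11, 6.25 and 6.87 CPM in wild-type pools.

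**Figure D5:**
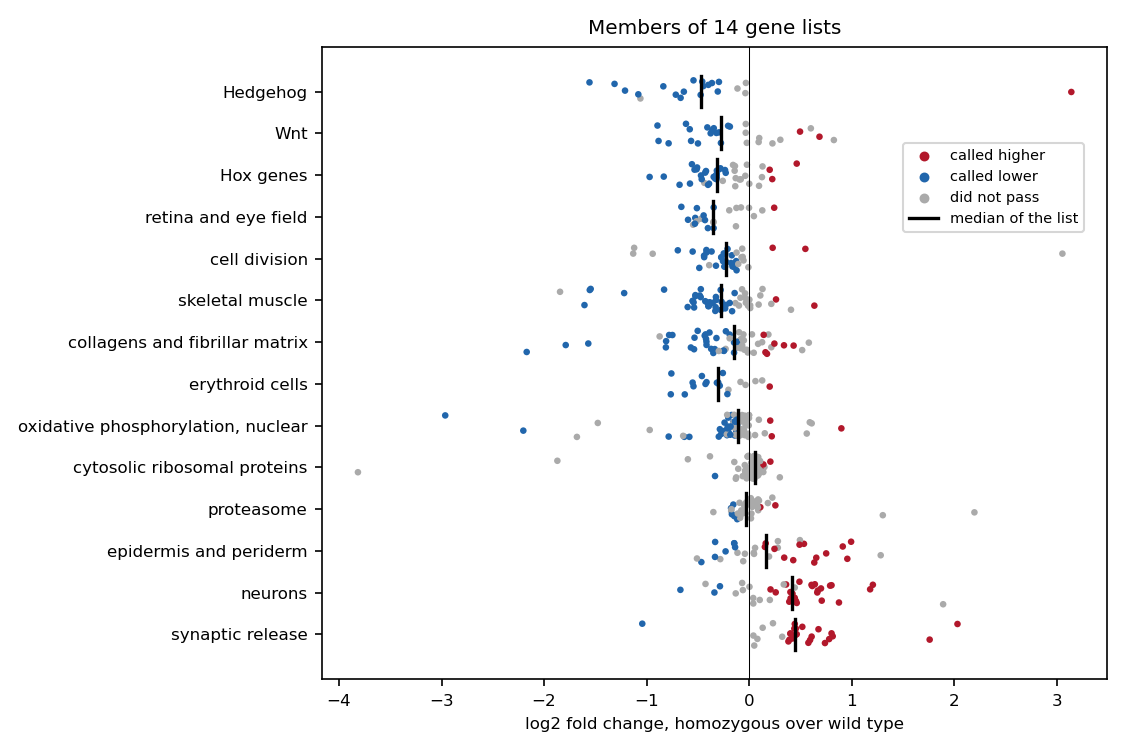
Log2 fold change of every tested member of 14 gene lists, homozygous over wild type, with called members in red (higher) and blue (lower), others in grey, and a black bar at the median of each list. Hedgehog, Wnt, Hox, retina, cell division, muscle and erythroid members lie mostly below 0, neuron and synapse members mostly above, and ribosomal and proteasome members around 0.

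Heart genes had 8 of 27 higher (29.6%, against 23.5% of all genes) and 3 lower. Without homozygous replicate 1, 2 or 3, 5 were higher, and without wild-type replicate 2, 4 were. Without homozygous replicate 2 or 3, 1 was lower. nppa, the natriuretic peptide gene of the working myocardium, had 13.5, 12.9 and 13.1 CPM in homozygous, 6.55, 5.30 and 5.21 CPM in heterozygous and 7.38, 6.64 and 8.01 CPM in wild-type pools and rose (0.84 ± 0.10), and the ventricular myosin gene MYH7 rose by 0.44 ± 0.06. The factor gene MEF2C (ENSDARG00000009418), shared with skeletal muscle, was at -0.60 ± 0.06.

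Vessel genes had 7 of 29 higher (24.1%, against 23.5% of all genes) and 12 lower (41.4%, against 21.1%). The growth factor receptor genes kdrl and KDR went opposite ways: kdrl had 38.7, 37.6 and 37.7 CPM in homozygous pools, against 62.7, 63.1 and 66.2 CPM in wild-type pools (log2 -0.75 ± 0.05), and KDR had 28.02, 28.2 and 30.4 CPM in homozygous pools, against 21.2, 18.2 and 19.2 CPM in wild-type pools (log2 0.57 ± 0.07). The guidance receptor gene robo4 averaged 61.0 ± 6.64 CPM in homozygous, 125 ± 1.05 in heterozygous and 132 ± 13.8 in wild-type embryos, the scavenger receptor gene MRC1 averaged 28.04 ± 3.43 CPM in homozygous, 57.7 ± 1.66 in heterozygous and 63.2 ± 1.95 in wild-type embryos, and the venous factor gene NR2F2 averaged 165 ± 4.87 CPM in homozygous, 236 ± 15.2 in heterozygous and 247 ± 5.74 in wild-type embryos, each lowest in homozygous embryos. The arterial ligand gene dll4 rose by 0.42 ± 0.07, and sox18, a vessel factor, by 0.43 ± 0.07.

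Red cell genes were lower, with 1 of 19 higher and 13 lower (median -0.30). The embryonic globin gene hbae3, one of several near-identical copies, averaged 1681 ± 23.2 CPM in homozygous, 1891 ± 87.1 in heterozygous and 2257 ± 94.1 in wild-type embryos. SPTB, of the membrane skeleton, had 244, 249 and 259.8 CPM in homozygous, 276, 277 and 291 CPM in heterozygous and 355, 341 and 340.3 CPM in wild-type pools, with the genotypes in the order homozygous, heterozygous and wild type from low to high (log2 -0.46 ± 0.04). ANK1 (ENSDARG00000059093), its anchor, was at -0.76 ± 0.06. UROD, of haem synthesis, was the 1 member that rose (0.20 ± 0.05). Homozygous against heterozygous siblings gave 3 red cell genes higher and 8 lower. Heterozygous against wild-type embryos gave 0 higher and 11 lower.

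Matrix and fin fold genes fell more often than they rose. Of 61 collagen and fibrillar matrix genes tested, 6 rose and 28 fell (median -0.15), and of 26 fin fold genes, 3 rose and 17 fell (median -0.26). The matrix list missed fibronectin, because it was written with paralogue letters that the symbol FN1 lacks. FN1 (ENSDARG00000006526) rose by 2.36 ± 0.09, with means of 1752 CPM in homozygous and 341 CPM in wild-type embryos. The highest log2 fold change within the matrix list was 0.58. col17a1a, a transmembrane collagen of hemidesmosomes, had 4.11, 3.83 and 4.07 CPM in homozygous, 12.5, 9.40 and 12.8 CPM in heterozygous and 16.4, 18.4 and 19.1 CPM in wild-type pools, with homozygous pools below all others and a log2 fold change of -2.17 ± 0.11 (edgeR adjusted p = 9.10e-11). The actinotrichia genes and3 and and1, which build the fin fold's fibres, averaged 22.5 ± 0.596 CPM in homozygous, 60.7 ± 0.944 in heterozygous and 63.1 ± 1.51 in wild-type embryos, and 212 ± 6.19 CPM in homozygous, 314 ± 11.7 in heterozygous and 305 ± 5.43 in wild-type embryos. LUM, a small proteoglycan that spaces collagen fibrils, was at -0.81 ± 0.05 and the basement membrane collagen col4a3 at -0.81 ± 0.07. The laminin gene lamc1 rose (0.27 ± 0.04), as did the crosslinking enzyme gene loxl2a (0.43 ± 0.05) and the collagen gene COL12A1 (ENSDARG00000078322) (0.34 ± 0.05).

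Skin genes rose more often than they fell, with 13 of 33 higher and 7 lower. Without wild-type replicate 3, 4 were lower. The tight junction gene cldne had 203, 209.6 and 188 CPM in homozygous, 111, 113 and 103 CPM in heterozygous and 94.3, 108 and 107 CPM in wild-type pools, a rise of 0.96 ± 0.06 (edgeR adjusted p = 8.28e-10), and the adhesion gene cdh1, E-cadherin, had 194, 169 and 196 CPM in homozygous, 114, 115 and 112 CPM in heterozygous and 93.7, 97.2 and 106 CPM in wild-type pools, a rise of 0.91 ± 0.06. The periderm factor gene GRHL1 rose by 0.75 ± 0.06 and the abundant keratin gene krt4 by 0.34 ± 0.04. For krt4, heterozygous pools were also above wild type (0.30 ± 0.04, edgeR adjusted p = 1.69e-05). Its log2 fold change for homozygous over heterozygous was 0.04 ± 0.04 (adjusted p = 0.446). The mucus cell gene AGR2 was at -0.33 ± 0.07 and the keratin gene krt91 at -0.23 ± 0.04.

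Ionocytes, skin cells that pump ions, had 7 of 23 genes higher and 7 lower. Among those that fell were the tandem sodium pump genes atp1a1a.3 with 6.29, 5.84 and 11.7 CPM in homozygous, 48.5, 51.9 and 54.6 CPM in heterozygous and 46.1, 37.3 and 45.04 CPM in wild-type pools (log2 -2.47 ± 0.26) and atp1a1a.4 at -1.07 ± 0.06. Carbonic anhydrase ca15a and the ionocyte factor foxi3a, of proton-secreting cells, rose by 0.82 ± 0.07 and 0.37 ± 0.08.

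Kidney genes had 6 of 25 higher (24%, against 23.5% of all genes) and 9 lower (36%, against 21.1%). The uptake receptor gene CUBN (cubilin) averaged 13.4 ± 0.339 CPM in homozygous, 25.2 ± 1.64 in heterozygous and 24.9 ± 1.86 in wild-type embryos, and the chloride channel gene clcnk averaged 2.25 ± 0.473 CPM in homozygous, 6.41 ± 0.512 in heterozygous and 6.46 ± 0.407 in wild-type embryos, each lowest in homozygous embryos, while the early factor gene lhx1a, also neural, averaged 67.5 ± 2.96 CPM in homozygous, 33.0 ± 1.498 in heterozygous and 37.6 ± 1.44 in wild-type embryos. Gut, liver and pancreas genes had 8 of 18 higher and 2 lower (median 0.19), and the highest log2 fold change was 0.71. The endoderm factor gene FOXA1, at -0.42 ± 0.07, was among the 2 that went against most called members. Leaving out any 1 homozygous or wild-type library gave 1 lower. Pigment and neural crest genes had 8 of 31 higher (25.8%, against 23.5% of all genes) and 10 lower (32.3%, against 21.1%). Without homozygous replicate 1, 5 were higher. Among those that fell were XDH at -1.30 ± 0.08 and gch2 at -0.42 ± 0.04, both of yellow pigment, while the melanosome gene pmela was higher by a small amount (0.21 ± 0.04). Hatching gland genes had 4 of 8 higher and 1 lower. Without wild-type replicate 2, 2 were lower. The hatching enzyme gene he1.3 had 10.9, 8.48 and 12.8 CPM in homozygous, 1.95, 2.43 and 2.68 CPM in heterozygous and 5.80, 5.54 and 6.61 CPM in wild-type pools, with heterozygous pools the lowest, and rose by 0.83 ± 0.14. ctslb, a hatching gland cathepsin, was at -0.98 ± 0.18.

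Few ribosomal protein genes changed, with 4 of 77 higher, 1 lower and a median of 0.05. The higher count moved between 0 (without homozygous replicate 3 or wild-type replicate 2) and 12 (without wild-type replicate 3), and was 10 with the replicate number as a block and 1 without homozygous replicate 1 or wild-type replicate 1. RPL12, the 1 that fell (-0.33 ± 0.12), was picked after its values were seen, a call lost once homozygous library 1 or 2 or wild-type library 1 or 3 was left out, at an adjusted p of 0.0772 to 0.126. Of 2 elongation factor genes named for their difference in CPM, eef1a1l1 had 15688, 15644 and 16134 CPM in homozygous pools, against 13556, 13721 and 13952 CPM in wild-type pools (0.20 ± 0.03) and eef2b was at 0.13 ± 0.04. Genes of tRNA synthetases had 4 of 14 higher (28.6%, against 23.5% of all genes), with a median of 0.02. Among those higher were the enzyme for methionine, MARS1, at 0.44 ± 0.07 and that for cysteine, CARS1, at 0.34 ± 0.05. Proteasome genes had 2 of 41 higher and 5 lower against wild type. The higher count was 1 with homozygous library 1 or 2 or wild-type library 2 left out, and the lower count was 3 without homozygous replicate 2. Against heterozygous siblings 31 were lower, and in heterozygous against wild-type embryos 28 were higher. The regulatory subunit gene PSMD12 had 144, 138 and 142 CPM in homozygous, 204, 201 and 204 CPM in heterozygous and 154, 154 and 161 CPM in wild-type pools, so that homozygous pools were near wild type and heterozygous pools stood above both (-0.14 ± 0.04 over wild type and -0.52 ± 0.04 over heterozygous).

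In all, 8 genes were near absent in 1 genotype, with at most 3 counts in each of its 3 libraries, and averaged 1 CPM or more in the other. They were picked after their values were seen, and no fold is given. In homozygous pools, PRDX3, a mitochondrial peroxide reductase, had 2, 1 and 2 counts, against 3.11, 3.01 and 1.62 CPM in wild-type pools. ABHD10 (ENSDARG00000058394), a mitochondrial hydrolase, had 0, 2 and 0 counts in homozygous pools, against 0.829, 1.82 and 0.367 CPM in wild-type pools. Both were also near absent in heterozygous pools, with at most 4 and 6 counts. The clone-named gene si:ch211-209l18.4 and the gene ENSDARG00000075027, which has no symbol, had 0 counts in all homozygous and heterozygous pools, against 2.07, 5.26 and 5.95 CPM for si:ch211-209l18.4 in wild-type pools.

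The other 4 were near absent in wild type, of which 3 are given. COX10, which makes haem for complex IV, had 2.31, 2.701 and 2.80 CPM in homozygous pools, 3.46, 3.51 and 4.23 CPM in heterozygous pools and 0 counts in each wild-type pool. pard6a, a cell polarity protein, had 1.26, 1.07 and 1.07 CPM in homozygous pools, 1.02, 1.76 and 0.796 CPM in heterozygous pools and 0, 0 and 3 counts in wild-type pools. ERI1, an exonuclease that trims histone messages, had 1.43, 1.01 and 1.496 CPM in homozygous pools and 1.58, 0.101 and 0.145 CPM in heterozygous pools, with 2, 2 and 0 counts in wild-type pools. These are low levels, and whether the reads come from the gene itself or from a near-identical copy was not tested.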

How the data were processed

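The authors deposited whole-number counts per gene for 9 libraries, 3 per genotype, not normalized. Per the submitters' processing notes, reads passed through cutadapt 1.18, HISAT2 2.1.0 and featureCounts 1.6.3 with build GRCz11 (danRer11). Annotation release, strandedness and counting options were not given in the sources used here, so reads of overlapping, antisense or near-identical genes cannot be told apart. Even values made up 96.3% to 97.5% of each library's low counts (1 to 19), so a fragment may have been counted as 2. Genotype labels gave the groups and titles the replicate numbers. Each library was kept as a replicate, since the labels call the pools separate. Halved counts of libraries of 1 genotype differed by more than counting error, with a chi-square of 2.65 to 6.52 per degree of freedom. That check cannot tell separate pools from separate preparations of 1 pool.

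Deposited counts were fitted in R 4.3.3 with edgeR 4.0.16 (robust quasi-likelihood F test), with all 9 libraries in one fit, the default filter by expression (20375 of 32520 gene IDs kept), scaling with TMM (trimmed mean of M values) and Benjamini-Hochberg adjustment over all genes tested. Standard errors are approximate, each computed as the log2 fold change over the root of its F statistic. A level of 3 counts in a library equals 0.0428 to 0.0777 CPM and covers counting error only. The comparison, its gene lists and the genes shown were chosen with earlier results of these data known. The 50 lists described, beside 3 set apart, held 1208 entries, of which 45 matched no gene ID. Lists written as a name pattern, such as collagens and fibrillar matrix, are not in these counts of entries. Over all 50 lists, 1500 of 1727 matched IDs passed the filter. An entry without an exact match was tried without its paralogue letter or number, and every ID sharing a matched symbol was taken. Patterns were not tried in that way, so they can miss genes whose symbol lacks the letter. Lists can therefore hold paralogues of the genes written, and counts of members are counts of IDs. Genes named were the npc2 IDs and their neighbours in RefSeq order; in each direction, the 15 with the largest fold change and the 10 with the largest CPM difference among called genes with at least 5 CPM in the higher genotype and no overlap of libraries; and up to 4 called members per direction of each list by lowest adjusted p, described in part. Genes outside this rule are marked as picked after their values were seen. Alternatives were DESeq2 1.42.0, limma-voom 3.58.1, other scalings and filters, 6 libraries only, a replicate block, halved counts and leaving out each library. No sequences are shown, and a few genes of the lists are not reported here. The fits were run on simulated counts in which far fewer genes changed than were called here. Such a run cannot show how scaling and error rates hold when this many genes change.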

Additional observations from a re-analysis of the deposited data

How the results depend on the processing

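Against 4783 genes higher and 4293 lower, leaving out 1 homozygous or wild-type library gave 4066 to 4461 higher and 3714 to 4065 lower, and all 15 alternatives together gave 4066 to 4829 higher and 3714 to 4509 lower, with 49.9% to 53.2% of calls higher. DESeq2 called 4497 higher and 4509 lower and limma-voom 4829 and 4333. At least 2-fold changes numbered 877 to 996 higher and 525 to 561 lower with 1 library left out. With a filter of 1 CPM in 3 libraries, which tests fewer genes, 646 genes were at least 2-fold higher against 984 and 394 lower against 575. With the replicate number as a block, 4779 genes were higher and 4294 lower. Libraries with the same number showed no shared deviation between homozygous and wild-type pools (r = -0.0242, 0.0119 and 0.0208 across genes). With 3 pools a genotype and many low-count genes, this check cannot exclude that same-numbered pools shared a day or batch. Of 388 named genes that were called, 42 lost the call under at least 1 alternative and none of the 388 changed sign under any, and 105 of 1500 list counts under alternatives moved by over 1.5 times, mostly counts of 5 or fewer. Counts even at low values, whole-embryo pools and an unknown strand setting limit single low genes, and mother, mating and genotype cannot be told apart in these libraries.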
